A study of Homo sapiens with 12 samples.

Results

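The 10 genes described here encode core, accessory and related subunits of the Polycomb repressive complexes: EZH1, EZH2, SUZ12, EED, RBBP4, RBBP7, JARID2 and PHF19 for Polycomb repressive complex 2 (PRC2), and BMI1 and CBX2 for PRC1. They were chosen by gene name (GENCODE 29) from a table of 58051 genes, and each name matched 1 gene. All 10 were among the 17774 genes that had enough counts to be tested. The cells were NB-1, a human neuroblastoma line with amplified MYCN and ALK. They were treated for 48 h with DMSO (the solvent control), with 0.5 µM BEZ-235, with 0.5 µM SAHA, or with both drugs together at those doses. BEZ-235 (dactolisib) inhibits PI3K and mTOR kinases, and SAHA (vorinostat) inhibits histone deacetylases. Polyadenylated RNA was sequenced from 3 biological replicates of each of the 4 treatments, 12 libraries in all. The labels do not say how the replicate cultures were kept apart, so p-values measure the spread between these samples of 1 cell line.

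Polycomb complexes keep genes silent through histone marks. PRC2 methylates lysine 27 of histone H3 through its catalytic subunit, EZH2 or the related EZH1, and needs SUZ12 and EED to be active. EZH2 is known to be abundant in dividing cells and EZH1 in cells that have stopped dividing, and in neuroblastoma EZH2 is known for repressing differentiation genes. PRC1 ubiquitinates histone H2A and holds a RING, a PCGF and, in its canonical form, a CBX subunit that reads the PRC2 mark.

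The libraries held 17662944 to 79543539 expected counts (median 20407980), and the deepest was replicate 2 of SAHA. Member genes had 246 to 14203 expected counts per library. The 3 combination libraries stood apart in composition: their log2 levels rose with transcript GC content by 0.19 to 0.44 per 10 percentage points, against -0.21 to 0.0088 in the other 9 libraries. Log2 differences of the members that involve the combination are therefore given with and without a correction of every library for GC content and transcript length ("corrected" below), while CPM values and their sums are uncorrected. The part of this trend in the uncorrected values was not tested. The 8 neuroblastoma markers (such as HAND2, GATA3 and DBH) were all tested. They summed to 2006 to 2287 CPM (counts scaled to library size) in DMSO, 1941 to 2196 in BEZ-235, 1682 to 1824 in SAHA, below every other library, and 1892 to 2338 in the combination. Of 8 leukocyte markers, 1 was tested and the sum was at most 2.89 CPM. Fibroblast markers (8 of 10 tested, FAP at 0 in every library) summed to 106 to 116 CPM in DMSO, 36.9 to 41.7 in BEZ-235, 420 to 471 in SAHA and 174 to 196 in the combination. Schwann cell markers (5 of 7 tested, SOX10 at 0 in every library) summed to 187 to 195, 302 to 342, 312 to 338 and 331 to 343 CPM in the same order. LUM held the most fibroblast counts in DMSO (1096, 1325 and 1406) and SAHA (6499, 24935 and 9752). PMP22 held the most Schwann cell counts in every library. Uncorrected, 0 of the 8 tested fibroblast markers were called higher and 3 lower with BEZ-235. These calls were 5 and 0 with SAHA and 4 and 3 with both drugs, beside the shares given above. The part of those marker levels in the results below was not tested.

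Promoter sequences are shown for EZH1, EZH2 and PHF19, since these genes had the values that moved farthest with BEZ-235, EZH1 upwards and the other genes downwards. Of the 10 members, 9 had an entry in the RefSeq promoter table (GRCh38.p14), which gives 250 bases before and 50 after a start site. Since 6 members had a window for each of several start sites, there were 15 windows in all. Capitals mark matches, on either strand, to the E2F letters (TTTCCCGC, TTTGGCGC, TTTCGCGC or TTTGCCGC) and to CCAAT, the letters bound by NF-Y. Each window lies on the minus strand and reads 5′ to 3′: chr17:42744991-42745290 for EZH1, chr7:148884242-148884541 for EZH2 and chr9:120877139-120877438 for PHF19.
EZH1: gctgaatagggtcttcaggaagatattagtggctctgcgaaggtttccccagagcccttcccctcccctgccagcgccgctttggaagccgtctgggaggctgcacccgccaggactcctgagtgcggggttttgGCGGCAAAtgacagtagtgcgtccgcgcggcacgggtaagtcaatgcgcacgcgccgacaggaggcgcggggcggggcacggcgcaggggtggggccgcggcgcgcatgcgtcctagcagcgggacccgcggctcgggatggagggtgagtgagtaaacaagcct
EZH2: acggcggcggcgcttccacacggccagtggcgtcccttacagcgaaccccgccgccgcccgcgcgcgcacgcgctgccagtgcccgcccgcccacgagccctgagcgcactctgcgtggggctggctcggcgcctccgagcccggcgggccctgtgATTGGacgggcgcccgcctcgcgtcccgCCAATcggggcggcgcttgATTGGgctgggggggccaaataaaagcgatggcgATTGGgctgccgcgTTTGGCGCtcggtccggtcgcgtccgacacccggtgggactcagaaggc
PHF19: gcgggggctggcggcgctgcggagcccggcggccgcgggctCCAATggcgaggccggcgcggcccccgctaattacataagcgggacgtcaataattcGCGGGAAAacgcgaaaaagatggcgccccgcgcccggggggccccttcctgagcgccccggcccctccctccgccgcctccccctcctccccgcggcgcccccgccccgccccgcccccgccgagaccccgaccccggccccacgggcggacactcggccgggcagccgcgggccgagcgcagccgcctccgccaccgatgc
The E2F letters occurred in 4 of the 15 member windows (1 each of EZH1, EZH2, SUZ12 and PHF19) and in 3.31% of all 35116 RefSeq windows. The other windows of EZH2 and PHF19 held no E2F letters. CCAAT occurred in 10 of the 15 windows, from 7 members, and in 34.6% of all windows. The RBBP4 windows (chr1:32650958-32651257 and chr1:32651106-32651405) overlap, and a CCAAT match in their shared bases is counted in both. The EZH2 window shown had 4 CCAAT matches and its other window had none of the motifs. Members with several windows had more chances of a match than a single window has.
The EZH1 window held the E2F letters but no CCAAT, and also 1 match to the FOXO letters TGTTTAC, which 3.42% of all windows hold. TTTGAA, a cell cycle homology element, was found in the SUZ12 window, 1 of the 15, and in 15.2% of all windows. The E-box CACGTG was in 2 of the 15 windows (RBBP4 and BMI1) and in 7.26% of all windows.

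The 2 catalytic subunits moved in opposite directions with BEZ-235, whether or not SAHA was present. EZH2 (ENSG00000106462, chr7:148807383-148884321, minus strand, hg38) was at 72.7, 76.6 and 73.6 CPM in DMSO and at 32.6, 31.6 and 31.8 CPM in BEZ-235. In SAHA it was at 67.2, 70.1 and 64.7 CPM, and in the combination at 28.8, 28 and 24.2 CPM. The 6 libraries with BEZ-235 all lay below the 6 without it. EZH2 fell 2.32-fold with BEZ-235 (log2 -1.21 ± 0.08 SE, edgeR quasi-likelihood test, adjusted p = 3.18e-09) and 2.75-fold with both drugs (-1.46 ± 0.08, edgeR adjusted p = 1.90e-10; corrected -1.20). With SAHA alone the log2 difference was -0.14 ± 0.08 (95% interval -0.30 to 0.021, edgeR adjusted p = 0.152), while the corrected value of -0.22 passed the test (adjusted p = 0.00598). Adding SAHA to BEZ-235 lowered EZH2 by a log2 difference of -0.25 (edgeR adjusted p = 0.0165), which was -0.012 after correction (adjusted p = 0.892) and -0.17 without replicate 3 of the combination (adjusted p = 0.102). The combination was below SAHA alone (-1.32, edgeR adjusted p = 1.12e-09; corrected -0.99). In bulk RNA, fewer cells that express a gene and less of its RNA per cell cannot be told apart.

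EZH1 (ENSG00000108799, chr17:42700275-42745049, minus strand) was at 50.2, 50.7 and 52.3 CPM in DMSO and at 80.1, 73.6 and 77.4 CPM in BEZ-235. In SAHA it was at 62.5, 52.8 and 47.5 CPM, and in the combination at 81.9, 83.0 and 76.6 CPM. Every library with BEZ-235 was above every library without it, and the SAHA libraries spread around the DMSO level. EZH1 rose 1.51-fold with BEZ-235 (log2 0.59 ± 0.09, edgeR adjusted p = 4.24e-05) and 1.58-fold with both drugs (0.66 ± 0.09, edgeR adjusted p = 7.99e-06; corrected 0.53). SAHA alone gave 0.08 ± 0.09 (95% interval -0.11 to 0.27, edgeR adjusted p = 0.477), and the combination differed from BEZ-235 by 0.063 (95% interval -0.13 to 0.25, edgeR adjusted p = 0.566; corrected -0.037, adjusted p = 0.680). The combination was above SAHA alone (0.57, edgeR adjusted p = 4.27e-05; corrected 0.53).

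**Figure D1:**
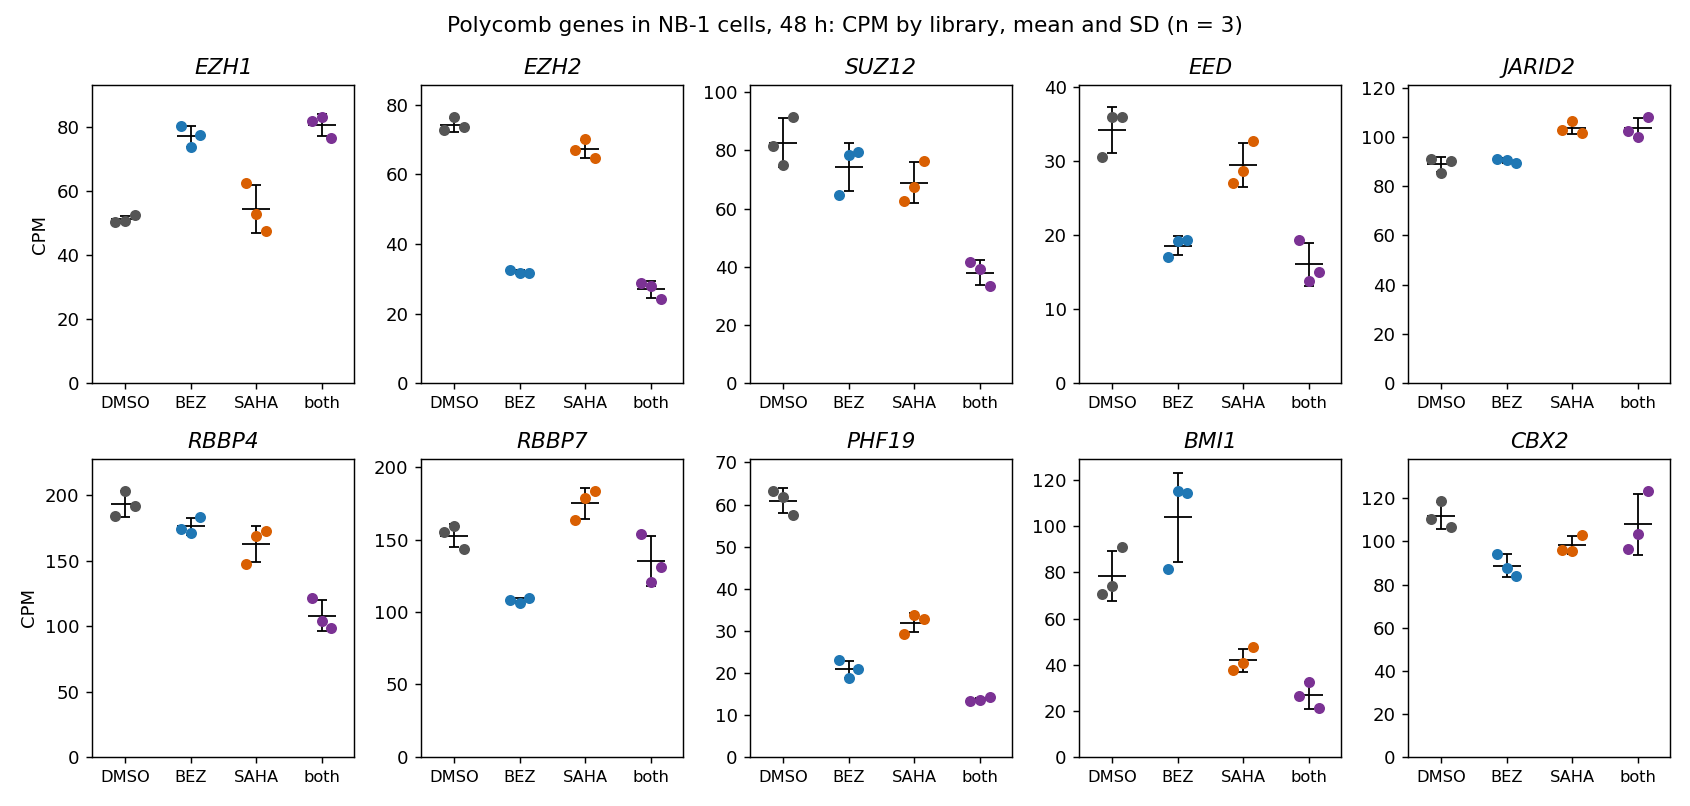
CPM (counts scaled to library size, linear axis from 0) of the 10 Polycomb genes in each library (points, replicates 1 to 3 from left to right) with the group mean and SD (bars, n = 3) for DMSO, BEZ-235 (BEZ), SAHA and both drugs. EZH2 fell from 74.3 CPM in DMSO to 32.0 in BEZ-235 while EZH1 went from 51.1 to 77, and PHF19 was lowest with both drugs at 13.7 CPM.

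Counts per transcript length put EZH2 above EZH1 in all libraries without BEZ-235 and below it in all libraries with BEZ-235. The EZH2 to EZH1 ratio per length was 1.84, 1.92 and 1.79 in DMSO and 1.36, 1.69 and 1.73 in SAHA. It was 0.518, 0.546 and 0.522 in BEZ-235 and 0.447, 0.428 and 0.402 in the combination. BEZ-235 lowered the log2 ratio by a mean difference of -1.85 (exact permutation test within SAHA status, 2-sided, p = 0.005, the smallest of the 400 arrangements; adjusted over 2 tests p = 0.005), and by -1.64 after correction (exact p = 0.005; adjusted over 2 tests p = 0.01). The difference with SAHA was -0.27 (exact permutation test within BEZ-235 status, 2-sided, p = 0.005; adjusted over 2 tests p = 0.005) but -0.094 after correction (exact p = 0.125). After correction the ratio was 0.503, 0.523 and 0.517 in the combination, overlapping 0.519, 0.510 and 0.490 in BEZ-235.

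**Figure D2:**
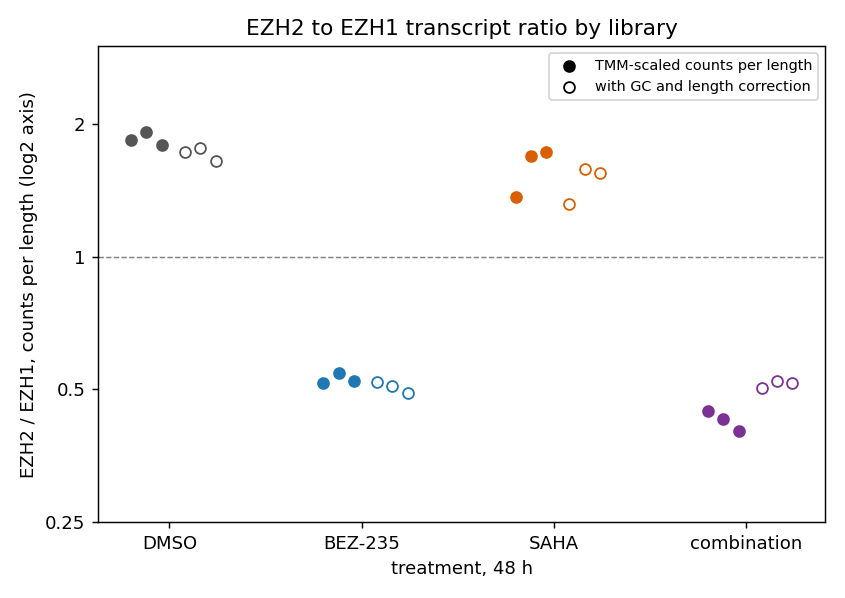
EZH2 to EZH1 ratio of counts per transcript length (log2 axis) in each library by treatment, with filled points for scaled counts and open points for values after GC and length correction; the dashed line marks equal levels. The DMSO and SAHA libraries lie between 1.36 and 1.92 and the libraries with BEZ-235 between 0.402 and 0.546 (filled points).

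Of the core partners of the catalytic subunits, EED fell with BEZ-235 alone and with both drugs, and SUZ12 fell with both drugs. EED (ENSG00000074266, chr11:86244544-86278813, plus strand), which binds the methylated histone tail, was at 30.6, 36 and 35.9 CPM in DMSO and 17.1, 19.1 and 19.4 CPM in BEZ-235. SAHA libraries had 27, 28.7 and 32.7 CPM, and combination libraries 19.3, 13.8 and 15 CPM. The libraries with BEZ-235 lay below those without it, and SAHA overlapped DMSO. EED fell 1.84-fold with BEZ-235 (log2 -0.88 ± 0.12, edgeR adjusted p = 1.61e-05). With both drugs it fell by 1.09 on the log2 scale (± 0.12, edgeR adjusted p = 9.03e-07), and the corrected fall was smaller, at -0.35 (adjusted p = 0.00854). The combination and BEZ-235 differed in EED by -0.21 (edgeR adjusted p = 0.169) before correction and by 0.49, in the other direction, after it (adjusted p = 0.00134). Without combination replicate 1 the uncorrected difference was -0.36 and passed the test (edgeR adjusted p = 0.0157). Against SAHA alone the combination was lower by -0.88 (edgeR adjusted p = 1.36e-05), and by -0.13 after correction (adjusted p = 0.324). EED transcripts have the lowest GC content of the members (33.0%).

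SUZ12 (ENSG00000178691, chr17:31937018-32001045, plus strand), the scaffold of PRC2, was at 81.5, 75.1 and 91.5 CPM in DMSO and at 64.6, 78.5 and 79.3 CPM in BEZ-235. In SAHA it was at 62.7, 67.5 and 76.4 CPM, and in the combination at 41.5, 39.2 and 33.3 CPM. The combination libraries lay below all others, and the single-drug libraries overlapped DMSO. The log2 difference from DMSO was -0.16 ± 0.11 with BEZ-235 (95% interval -0.39 to 0.071, edgeR adjusted p = 0.241). With SAHA it was -0.26 ± 0.11 (edgeR adjusted p = 0.0574; corrected -0.31, adjusted p = 3.81e-04). That uncorrected difference passed the test when DMSO replicate 2 (edgeR adjusted p = 0.0365), SAHA replicate 3 (0.0281), BEZ-235 replicate 1 (0.0446) or combination replicate 3 (0.0433) was left out. SUZ12 fell 2.18-fold with both drugs (-1.12 ± 0.11, edgeR adjusted p = 1.90e-07; corrected -0.60, adjusted p = 2.67e-07). It was also lower in the combination than with BEZ-235 alone (-0.97, edgeR adjusted p = 1.89e-06; corrected -0.46) and than with SAHA alone (-0.86, edgeR adjusted p = 5.90e-06; corrected -0.29). The partial copy SUZ12P1 held 18.8 CPM in DMSO and 15.6 in the combination, and reads may be split between it and SUZ12.

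RBBP4 and RBBP7 are histone-binding WD40 proteins that PRC2 shares with other chromatin complexes, among them histone deacetylase complexes. RBBP4 (ENSG00000162521, chr1:32651142-32686211, plus strand) was at 184, 204 and 192 CPM in DMSO and at 174, 171 and 184 CPM in BEZ-235. The SAHA libraries held 147, 169 and 173 CPM, and the combination libraries 122, 104 and 98.5 CPM. The combination libraries were the lowest, and SAHA lay below DMSO with no overlap. RBBP4 fell with both drugs (log2 -0.84 ± 0.09, edgeR adjusted p = 4.05e-07; corrected -0.62). The smaller fall with SAHA (-0.25 ± 0.09, edgeR adjusted p = 0.0315; corrected -0.41) lost its call when any of 4 libraries was left out: SAHA replicate 1 (adjusted p = 0.148), SAHA replicate 2 (0.0524), DMSO replicate 2 (0.104) or DMSO replicate 3 (0.0526). It was also lost without a filter on low counts (edgeR adjusted p = 0.0816). RBBP4 was lower in the combination than with BEZ-235 (-0.71, edgeR adjusted p = 4.59e-06; corrected -0.43) and than with SAHA (-0.59, edgeR adjusted p = 2.61e-05; corrected -0.21). With BEZ-235 the difference was -0.13 ± 0.09 (95% interval -0.32 to 0.052, edgeR adjusted p = 0.221; corrected -0.19, adjusted p = 0.0473).

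RBBP7 (ENSG00000102054, chrX:16839283-16870414, minus strand) was at 155, 159 and 144 CPM in DMSO, at 108, 106 and 109.6 CPM in BEZ-235 and at 163, 179 and 184 CPM in SAHA. The combination libraries, at 154, 121 and 131 CPM, were above BEZ-235 and overlapped DMSO. RBBP7 fell with BEZ-235 (log2 -0.50 ± 0.09, edgeR adjusted p = 1.50e-04; corrected -0.48) and was higher in the combination than with BEZ-235 alone (0.33 ± 0.09, edgeR adjusted p = 0.00418; corrected 0.61). With both drugs it differed from DMSO by -0.18 ± 0.09 (edgeR adjusted p = 0.0848), and by 0.12 after correction (adjusted p = 0.125). The uncorrected difference was -0.30 and passed the test without combination replicate 1 (edgeR adjusted p = 0.00367). It also passed without DMSO replicate 3 (-0.25, edgeR adjusted p = 0.0351), without SAHA replicate 1 (-0.20, edgeR adjusted p = 0.0444) and without a filter on low counts (-0.23, edgeR adjusted p = 0.0496). The SAHA libraries lay above DMSO with no overlap, by 0.20 ± 0.09 (edgeR adjusted p = 0.0726), and by 0.125 after correction (adjusted p = 0.134). RBBP7 was lower with both drugs than with SAHA (-0.37, edgeR adjusted p = 0.00138), a difference that was -0.003 after correction and did not pass the test. Exons of SYNC and TXLNG overlap RBBP4 (1706 bases) and RBBP7 (179 bases) on the opposite strand, and whether the counting used strand is not stated; SYNC was at 0.669 CPM on average and TXLNG at 44.0.

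Among the accessory subunits, PHF19 fell in every comparison that added a drug, while JARID2 stayed between 85.3 and 108.2 CPM in all libraries. PHF19 (ENSG00000119403, chr9:120855652-120894896, minus strand) is a Polycomb-like protein that helps recruit PRC2 to chromatin. It was at 63.3, 61.8 and 57.5 CPM in DMSO, 22.9, 18.8 and 20.8 in BEZ-235, 29.3, 33.6 and 32.9 in SAHA and 13.3, 13.6 and 14.2 in the combination. The 4 groups did not overlap. PHF19 fell 2.92-fold with BEZ-235 (log2 -1.55 ± 0.09, edgeR adjusted p = 9.19e-10), 1.90-fold with SAHA (-0.93 ± 0.09, edgeR adjusted p = 5.04e-07) and 4.45-fold with both (-2.15 ± 0.10, edgeR adjusted p = 1.45e-11). The corrected values were -1.47, -0.88 and -2.48. Its level in the combination was below that with BEZ-235 alone (-0.61, edgeR adjusted p = 5.70e-05; corrected -1.01) and with SAHA alone (-1.23, edgeR adjusted p = 2.07e-08; corrected -1.60).

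JARID2 (ENSG00000008083, chr6:15246296-15522040, plus strand), a DNA-binding cofactor of PRC2, was at 91.0, 85.3 and 90.3 CPM in DMSO and 91.1, 90.8 and 89.3 CPM in BEZ-235. It was at 102.9, 106.4 and 101.8 CPM in SAHA and 102.5, 100.1 and 108.2 CPM in the combination. All 6 libraries with SAHA lay above all 6 without it. The rise was 1.17-fold with SAHA (log2 0.22 ± 0.07, edgeR adjusted p = 0.0107) and 1.17-fold with both drugs (0.22 ± 0.07, edgeR adjusted p = 0.00716). Neither call held after correction (0.10, adjusted p = 0.101, and 0.063, adjusted p = 0.293). The first was also lost without SAHA replicate 2 (edgeR adjusted p = 0.0543) and the second without DMSO replicate 2 (edgeR adjusted p = 0.0516). Without a filter on low counts the p-values were 0.0567 and 0.209 (edgeR adjusted). Adding SAHA to BEZ-235 raised JARID2 by 0.20 (edgeR adjusted p = 0.0165), which was 0.093 after correction (adjusted p = 0.139). That call was also lost without BEZ-235 replicate 2 (edgeR adjusted p = 0.0514), BEZ-235 replicate 3 (0.0611) or combination replicate 3 (0.0720). With BEZ-235 the difference was 0.025 (95% interval -0.11 to 0.16, edgeR adjusted p = 0.779).

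**Figure D3:**
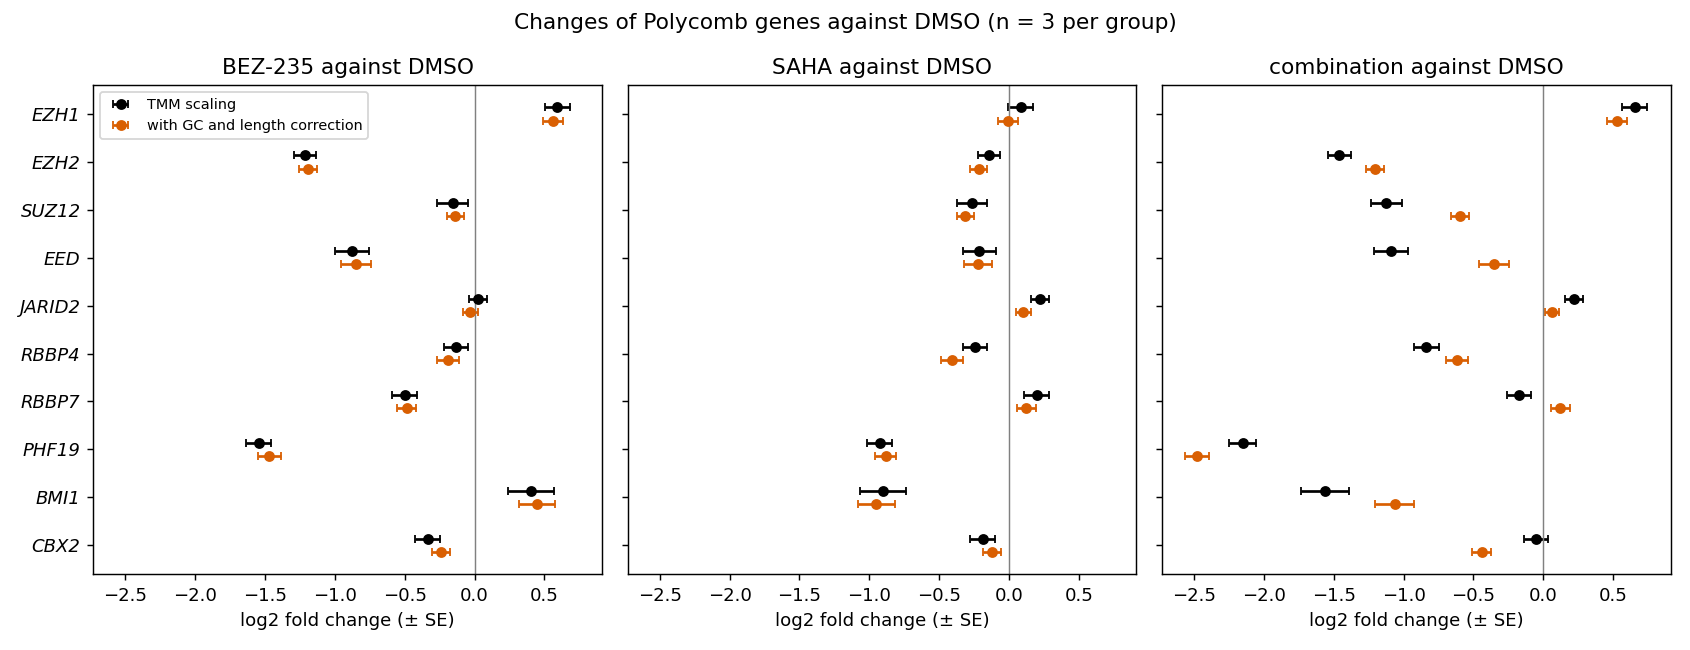
Log2 fold change against DMSO (points, bars show the SE, n = 3 per group) of the 10 Polycomb genes for BEZ-235, SAHA and both drugs, with TMM-scaled counts in black and values after GC and length correction in orange. For the combination, EED moves from -1.09 to -0.35 and SUZ12 from -1.12 to -0.60 on correction, while PHF19 goes from -2.15 to -2.48.

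Of the PRC1 members, BMI1 fell with SAHA and most in the combination, and CBX2 fell with BEZ-235. BMI1 (PCGF4; ENSG00000168283, chr10:22321211-22331484, plus strand), a PCGF subunit known for repressing the CDKN2A locus, was at 70.8, 73.9 and 90.9 CPM in DMSO and at 81.7, 115 and 114 CPM in BEZ-235. In SAHA it was at 37.9, 40.6 and 47.6 CPM, and in the combination at 26.5, 32.6 and 21.0 CPM. The SAHA and combination libraries lay below both other groups, and BEZ-235 overlapped DMSO through its replicate 1. BMI1 fell 1.87-fold with SAHA (log2 -0.90 ± 0.17, edgeR adjusted p = 6.55e-04; corrected -0.95) and 2.95-fold with both drugs (-1.56 ± 0.17, edgeR adjusted p = 3.36e-06; corrected -1.07). Against BEZ-235 alone the combination was 3.90-fold lower (edgeR adjusted p = 7.25e-07; corrected log2 -1.52). Against SAHA alone it was lower by a log2 difference of -0.66 (edgeR adjusted p = 0.00492), which was -0.12 after correction (adjusted p = 0.514).

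BMI1 in BEZ-235 was higher than in DMSO by 0.40 ± 0.16 on the log2 scale, just outside the threshold (edgeR adjusted p = 0.0539), and passed it after correction (0.45, adjusted p = 0.0105) and without BEZ-235 replicate 1 (0.53, adjusted p = 0.0110). It also passed without DMSO replicate 3 (edgeR adjusted p = 0.0335), combination replicate 2 (0.0388) or combination replicate 3 (0.0338). The readthrough gene COMMD3-BMI1 shares 1000 exon bases with BMI1 on the same strand and held 18.6, 19.9, 18.2 and 18.6 CPM in DMSO, BEZ-235, SAHA and the combination. With both genes summed, an alternative chosen after seeing the data, the BEZ-235 difference was 0.35 (edgeR adjusted p = 0.0102), the SAHA difference -0.69 and the combination difference -1.10, all uncorrected.

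CBX2 (ENSG00000173894, chr17:79778132-79787983, plus strand), a chromodomain subunit of canonical PRC1, was at 110.2, 119 and 107 CPM in DMSO and at 94.3, 87.8 and 83.8 CPM in BEZ-235. With SAHA the values were 96.2, 95.6 and 103 CPM, and with both drugs 96.7, 103 and 124 CPM. The BEZ-235 libraries lay below all others, and the combination spread over the DMSO and SAHA ranges. CBX2 fell with BEZ-235 (log2 -0.34 ± 0.09, edgeR adjusted p = 0.00471; corrected -0.24). With both drugs it differed from DMSO by -0.052 ± 0.09 (95% interval -0.24 to 0.14, edgeR adjusted p = 0.623) before correction and by -0.44 after it (adjusted p = 1.23e-05). The sign of the combination against BEZ-235 turned with the correction, from 0.28 (edgeR adjusted p = 0.0117) to -0.20 (adjusted p = 0.0153). The uncorrected call was lost without BEZ-235 replicate 3 (edgeR adjusted p = 0.0591) or combination replicate 3 (0.0882). Against SAHA alone the combination differed by 0.14 (edgeR adjusted p = 0.197), and by -0.32 after correction (adjusted p = 4.49e-04). CBX2 transcripts have the highest GC content of the members (59.7%).

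Counted over the members, 6 of 10 passed the test with BEZ-235, beside 50.9% of all genes tested. EZH1 was the 1 called higher (25.5% of all genes) and 5 were called lower (25.4%). With SAHA, 4 of 10 passed, beside 43.1%: 1 was higher (22.2% of all genes) and 3 were lower (20.9%), and 2 passed without SAHA replicate 2. With both drugs against DMSO, 8 of 10 passed, beside 64.4%: 2 were higher (33.2% of all genes) and 6 were lower (31.2%). After correction 7 of these 8 kept the call and direction, JARID2 being the exception. The combination against BEZ-235 gave 8 of 10, beside 58.0%, with 3 higher (29.5%) and 5 lower (28.5%), and 5 passed without combination replicate 3. Of these 8, 5 kept the call and direction after correction (SUZ12, RBBP4, RBBP7, PHF19 and BMI1). The combination against SAHA gave 8 of 10, beside 58.8%, with 1 higher (29.9%) and 7 lower (28.9%), and 5 kept it after correction (EZH1, EZH2, SUZ12, RBBP4 and PHF19). Counted in either direction, the shares for BEZ-235 and SAHA are near the background. By direction, with BEZ-235 the 5 of 10 called lower are above the 25.4% of all genes, and the 1 called higher is below the 25.5%. The comparisons with DMSO share the same 3 DMSO libraries.

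Groups did not overlap for 7 members with BEZ-235 (59.3% of all genes), 7 with SAHA (54.2%) and 8 with both drugs (66.2%). The combination did not overlap BEZ-235 for 8 members (62.0% of all genes) or SAHA for 8 (63.0%). The members' median log2 difference from DMSO was -0.25 with BEZ-235, -0.20 with SAHA and -0.96 with both (corrected -0.22, -0.22 and -0.52), beside 0.017, -0.005 and 0.034 over all genes tested.

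Whether the SAHA effect differed with BEZ-235 present was tested by the interaction term. It passed for 4 of 10 members, beside 38.4% of all genes, with 1 positive (18.9%) and 3 negative (19.6%): SUZ12 (log2 -0.70 ± 0.15, edgeR adjusted p = 0.00225), BMI1 (-1.06 ± 0.24, edgeR adjusted p = 0.00373), RBBP4 (-0.46 ± 0.12, edgeR adjusted p = 0.00805) and CBX2 (0.47 ± 0.13, edgeR adjusted p = 0.00748). None of the 4 passed after correction, when SUZ12 was at -0.15, BMI1 at -0.57, RBBP4 at -0.020 and CBX2 at -0.083. With the replicate number as a block added to the correction, BMI1 passed again (-0.56, edgeR adjusted p = 0.0293). EED (0.004 before, 0.72 after correction, adjusted p = 0.00360) and RBBP7 (0.13 before, 0.48 after, adjusted p = 0.00227) passed with the correction and not without it. For EZH1 the term was -0.021 (95% interval -0.29 to 0.25; corrected -0.032). For EZH2 it was -0.11 (95% interval -0.34 to 0.13) and 0.20 after correction (adjusted p = 0.124), in neither case past the threshold.

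Levels can be compared between genes only per transcript length, here as CPM per kilobase of the longest transcript. In DMSO the order was RBBP7 (37.9), RBBP4 (24.3), CBX2 (24.1), BMI1 (22.9), EZH2 (20.4), SUZ12 (18.4), JARID2 (15.4), PHF19 (14.4), EED (12.3) and EZH1 (11.1). Neighbours in that order overlapped over the 3 replicates except at RBBP7 and RBBP4, SUZ12 and JARID2, and PHF19 and EED. In the combination, without correction, EZH1 was the fourth, at 17.4, EZH2 was at 7.42 and PHF19 was lowest, at 3.22 CPM per kilobase. The order depends on the length used: over merged exons RBBP7 and RBBP4 overlapped in DMSO. By that length JARID2 stood above SUZ12 in DMSO, and EED (4.87) was lowest, below EZH1 (7.31) with no overlap. In the combination PHF19 (2.03) then overlapped EED (2.29).

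Likeness of pattern was measured by Pearson's r of uncorrected log2 CPM over the 12 libraries among 10418 well-expressed genes, as a description, since libraries of a treatment share it. The genes most like EZH2 were ZWINT (r = 0.998), TFRC (0.997), FANCD2 (0.996), KNTC1 (0.996) and SPAG5 (0.995). ZWINT, KNTC1 and SPAG5 encode kinetochore or spindle proteins, FANCD2 a DNA repair protein and TFRC the transferrin receptor. Among the 5 genes most like EZH1 were ZDHHC11B (0.995), ZNF862 (0.994), WDR59 (0.987) and TRIM56 (0.982). Among the members, EZH2 was most like EED (0.955) and PHF19 (0.919), and r between EZH2 and EZH1 was -0.939.

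Cell cycle genes moved along with the treatments. The uncorrected counts of this and the following gene lists stand beside shares over all genes tested of 25.5% higher and 25.4% lower with BEZ-235, 22.2% and 20.9% with SAHA, and 33.2% and 31.2% with both drugs. Corrected counts stand beside other totals of the 17774 genes: 5221 higher and 4827 lower with BEZ-235, 3979 and 5093 with SAHA, and 5890 and 5779 with both drugs. The 12 S phase genes summed to 1649 to 1779 CPM in DMSO, 506 to 539 in BEZ-235, 1164 to 1341 in SAHA and 369 to 386 in the combination, and the part of this in the EZH2, EED and PHF19 values was not tested. All 12 fell with BEZ-235 (median log2 -2.09), 10 with SAHA (-0.51) and 11 with both (-2.56; corrected 12, -2.75). The 8 mitosis genes summed to 2190 to 2432 CPM in DMSO, 726 to 792 in BEZ-235, 3390 to 3715 in SAHA and 674 to 777 in the combination. All 8 fell with BEZ-235 and with both drugs (also after correction), and 5 rose with SAHA. Of 10 E2F and RB family genes, 8 fell with BEZ-235, led by E2F8 (-3.88), E2F7 (-3.59), E2F2 (-3.59) and E2F1 (-3.32). With SAHA, E2F1 fell by 0.39 on the log2 scale (edgeR adjusted p = 0.00435), 2 genes of the list rose (RB1 and RBL2) and 3 fell.

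Of 7 other accessory genes of PRC2 in the table, 6 were tested (EZHIP, an inhibitor of PRC2, was at 0 in every library). With BEZ-235, 2 rose and 1 fell (median -0.013), with SAHA 1 fell (EPOP, not called after correction) and with both drugs 1 rose and 4 fell (corrected 1 and 3). PHF1, a Polycomb-like paralog of PHF19, was at 39.5, 39.0 and 33.4 CPM in DMSO and 73.2, 78.1 and 83.0 in the combination, where every library was above every DMSO library. It rose with both drugs (log2 1.07 ± 0.11, edgeR adjusted p = 2.90e-07; corrected 0.72). MTF2, the third Polycomb-like protein, fell with BEZ-235 (-0.33 ± 0.09, edgeR adjusted p = 0.00681), and its fall with both drugs (-0.63) was -0.076 after correction (adjusted p = 0.342). LCORL fell with both drugs (-0.97, edgeR adjusted p = 8.35e-06; corrected -0.44).

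Of 12 other canonical PRC1 genes, 4 rose and 1 fell with BEZ-235, 2 rose and 2 fell with SAHA, and 9 rose and 2 fell with both (corrected 6 and 1); the medians were 0.11, -0.021 and 0.33 (corrected 0.16). The counts for SAHA are near the shares over all genes (22.2% and 20.9%), and for BEZ-235 the 4 higher are near 25.5%. CBX7, a chromodomain paralog of CBX2, was at 5.22, 6.59 and 7.12 CPM in DMSO, 17.2, 16.9 and 15.5 in BEZ-235, 13.5, 12.1 and 10.9 in SAHA and 29.4, 34.5 and 31.1 in the combination. No library of 1 treatment overlapped another treatment. CBX7 rose 2.61-fold with BEZ-235 (log2 1.38 ± 0.13, edgeR adjusted p = 1.89e-07), 1.91-fold with SAHA (0.94 ± 0.13, edgeR adjusted p = 1.96e-05) and 5.0-fold with both (2.32 ± 0.13, edgeR adjusted p = 1.45e-10; corrected 1.96). The catalytic RING subunits had combination values that rested on the correction: RING1 went from 0.54 to 0.15 (corrected adjusted p = 0.105) and RNF2 from -0.56 to -0.018. SCML2 fell with BEZ-235 (-0.44, edgeR adjusted p = 3.93e-04) and with both drugs (-0.73, edgeR adjusted p = 1.24e-06; corrected -0.30).

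The PCGF paralogs of BMI1, which define the PRC1 variants, differed from it and among themselves. PCGF1 was at 42.8, 49.6 and 43.8 CPM in DMSO and 90.8, 83.4 and 81.1 in BEZ-235, and rose with BEZ-235 (log2 0.91 ± 0.09, edgeR adjusted p = 2.40e-07). With SAHA it fell (-0.38, edgeR adjusted p = 0.00203), and with both drugs it rose (0.59, edgeR adjusted p = 1.44e-05; corrected 0.37). PCGF2, the closest paralog of BMI1, rose with BEZ-235 (0.45, edgeR adjusted p = 0.00107) and with both drugs (0.71; corrected 0.43). PCGF6 fell with SAHA (-0.53, edgeR adjusted p = 0.00455) and with both drugs (-1.14, edgeR adjusted p = 3.10e-06; corrected -0.81). PCGF5 had 4, 3 and 2 expected counts in DMSO, 4, 10 and 7 in BEZ-235, 28, 105 and 39 in SAHA and 18, 30 and 34 in the combination, so its rises rest on few counts.

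Across the 15 variant PRC1 genes, 5 rose and 1 fell with BEZ-235, 3 rose and 5 fell with SAHA (corrected 3 and 10), and 4 rose and 7 fell with both drugs (corrected 5 and 7). BCORL1, a corepressor of the PCGF1 complex, rose with SAHA (log2 1.48 ± 0.11, edgeR adjusted p = 2.49e-08) and with both drugs (1.90 ± 0.11, edgeR adjusted p = 2.39e-10; corrected 1.53). L3MBTL2, of the PCGF6 complex, fell with BEZ-235 (-0.52, edgeR adjusted p = 5.80e-05), SAHA (-0.88, edgeR adjusted p = 3.85e-07) and both (-0.95, edgeR adjusted p = 5.06e-08; corrected -1.24). KDM2B, which brings the PCGF1 complex to CpG islands, fell with SAHA (-0.53, edgeR adjusted p = 3.19e-05) and both drugs (-0.61, edgeR adjusted p = 2.87e-06; corrected -1.0).

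**Figure D4:**
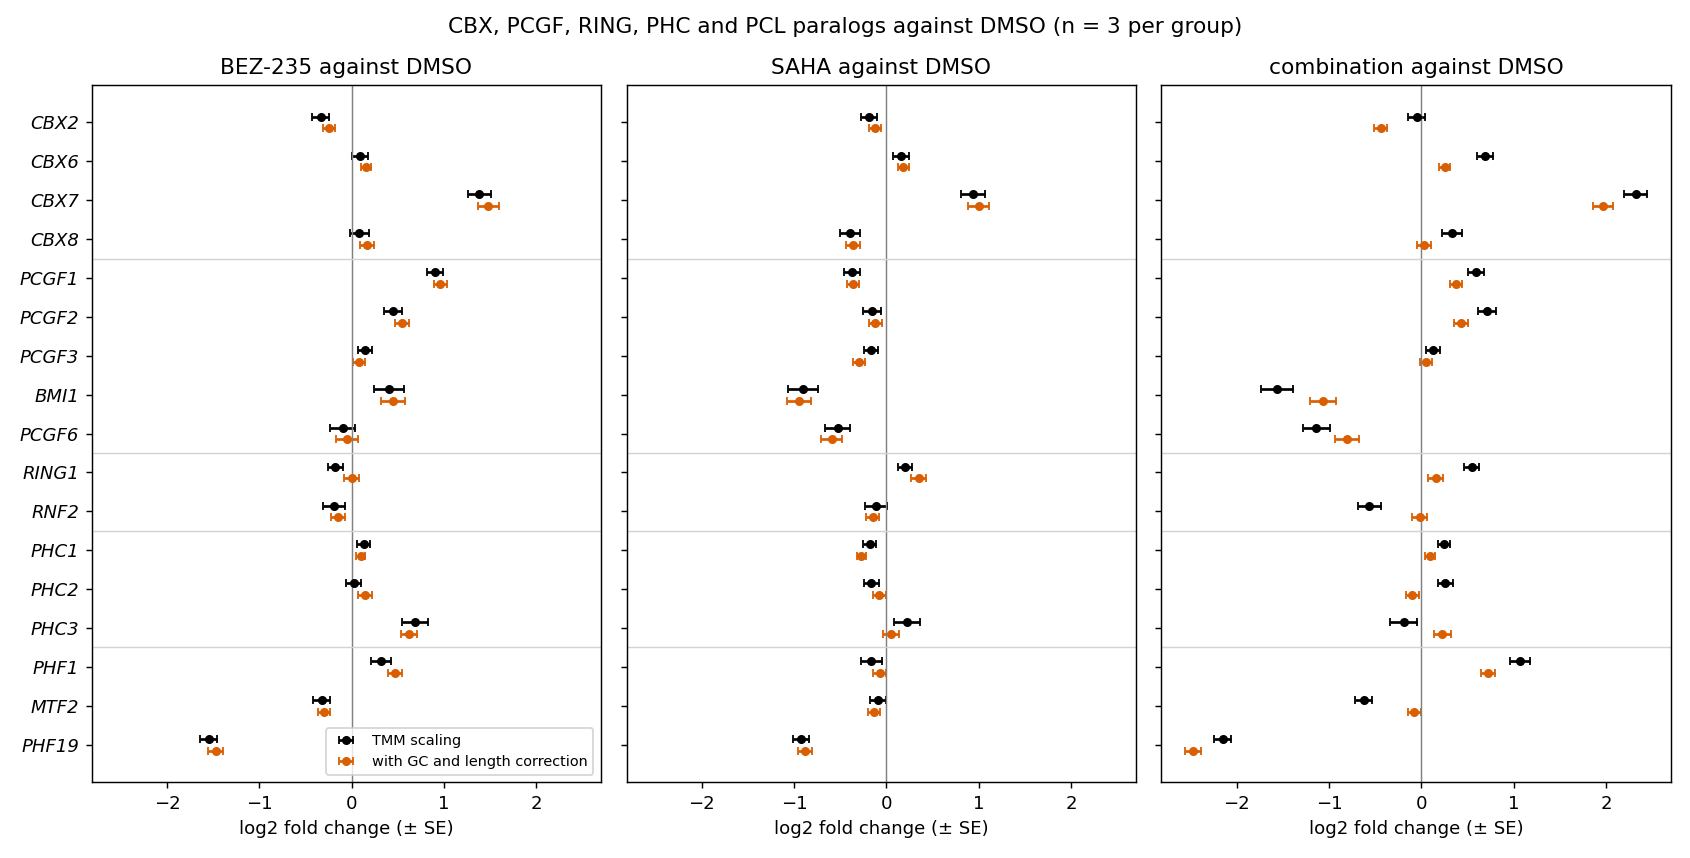
Log2 fold change against DMSO (points, bars show the SE, n = 3 per group) of CBX, PCGF, RING, PHC and Polycomb-like paralogs for BEZ-235, SAHA and both drugs, with TMM-scaled counts in black and values after GC and length correction in orange. CBX7 rises in all panels, up to 2.32 with both drugs, while PHF19 falls to -2.15 and BMI1 to -1.56.

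Genes of enzymes that remove the Polycomb marks were also measured. The H3K27 demethylase genes KDM6A (log2 0.31, edgeR adjusted p = 0.0270) and KDM6B (0.31, edgeR adjusted p = 0.0351) rose with BEZ-235. KDM6B also rose with both drugs (0.65, edgeR adjusted p = 1.33e-04), a value that was 0.12 after correction (adjusted p = 0.0618). Only after correction was KDM6A called higher with both drugs (0.21, edgeR adjusted p = 0.0486) and KDM6B lower with SAHA (-0.17, edgeR adjusted p = 0.0178). Of 7 tested genes of PR-DUB, which removes ubiquitin from histone H2A, 2 rose and 1 fell with BEZ-235, 2 rose and 2 fell with SAHA, and 3 rose and 1 fell with both (corrected 1 and 3). MBD5 rose with BEZ-235 (0.82), SAHA (0.55) and both drugs (0.89; corrected 1.14).

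Genes that EZH2 is known to repress did not move one way. Of 11 listed, 8 were tested. With BEZ-235, 1 rose and 5 fell (median log2 -0.58), with SAHA 2 rose and 3 fell (0.15), and with both drugs 4 rose and 3 fell (0.41; corrected 3 and 3, median 0.097). NGFR, the low-affinity neurotrophin receptor, fell with BEZ-235 (-1.49, edgeR adjusted p = 7.09e-09) and both drugs (-0.96, edgeR adjusted p = 4.60e-07; corrected -1.39). CASZ1, a transcription factor of neuroblast differentiation, fell with BEZ-235 (-0.90, edgeR adjusted p = 1.17e-04), and its rise with both drugs (0.48, edgeR adjusted p = 0.00657) was -0.035 after correction. CLU rose with SAHA (0.77, edgeR adjusted p = 1.35e-06), fell with BEZ-235 (-0.50, edgeR adjusted p = 7.34e-05) and rose with both (0.35, edgeR adjusted p = 0.00122; corrected 0.23). CDKN2B, which encodes the CDK inhibitor p15, had 1, 1 and 0 expected counts in DMSO and 24, 38.3 and 17 in SAHA. RUNX3 was at 0 in every library.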

How the data were processed

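Polyadenylated RNA of NB-1 cells was measured in 12 libraries, 3 for each of 4 treatments. The authors deposited expected counts per Ensembl gene, and STAR, RSEM and hg38 appear, per the submitters' processing notes. Software versions, the annotation and any strand setting were not given in the sources used here. Names, positions, transcript lengths and GC content came from GENCODE 29, which held 57447 of the 58051 gene IDs. Expected counts were rounded and fitted with edgeR 4.0.16 (R 4.3.3): TMM scaling, the filterByExpr filter (17774 genes, at least 99.87% of each library's counts), robust quasi-likelihood tests on 4 group means over all 12 libraries, and Benjamini-Hochberg adjustment over all genes tested, with calls at 0.05, 2-sided. The residual degrees of freedom were 8 and the biological coefficient of variation was 10.6%, and total counts of 17662944 or more set the counting precision. Fold changes are log2 with SE. The EZH2 to EZH1 ratio used normalised counts plus 0.5 and a stratified exact permutation test. Corrected values used per-library natural splines (5 degrees of freedom) of GC content and length as offsets. The alternatives tried were another scaling, DESeq2 1.42.0, other filters, unrounded counts, the replicate number as a block, only the groups compared, each library left out and, for the ratio, a pseudocount of 5. The fit was tested on simulated data. All members were named; of each gene list, those with the smallest adjusted p in each direction and others a sentence needed; and for EZH1 and EZH2 the 5 genes with the highest r. Some genes that this rule names are not reported here. Members and gene lists were chosen with earlier results of these data known, so list counts are descriptions.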

Additional observations from a re-analysis of the deposited data

Results flagged for a closer look

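In 4 of 10 members, beside 38.4% of all genes tested, the log2 effect of SAHA in the presence of BEZ-235 differed from that in its absence by the edgeR interaction test: SUZ12 by -0.70, RBBP4 by -0.46, BMI1 by -1.06 and CBX2 by 0.47. The log2 difference of SAHA from DMSO, and of the combination from BEZ-235, was -0.26 and -0.97 in SUZ12, -0.25 and -0.71 in RBBP4, -0.90 and -1.97 in BMI1, and -0.19 and 0.28 in CBX2. After correction for GC content and length the interaction values were -0.15, -0.020, -0.57 and -0.083 (edgeR adjusted p = 0.260, 0.928, 0.0580 and 0.580). With the replicate number as a block added to that correction, the BMI1 value was -0.56 (edgeR adjusted p = 0.0293).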

How the results depend on the processing

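The GC and length correction had the widest effect: of 60 member values (10 genes in 6 comparisons), 33 kept direction and side of the threshold and 10 changed sign. Of 38 calls, 26 were kept in the same direction and 11 were lost. The call of CBX2 in the combination against BEZ-235 was kept with its sign changed, and 9 values gained a call. Changed signs were JARID2 with BEZ-235 (-0.029), EZH1 with SAHA (-0.005), RBBP7 in the combination against DMSO (0.12), EZH1 (-0.037), EED (0.49) and CBX2 (-0.20) in the combination against BEZ-235, CBX2 in the combination against SAHA (-0.32), and EZH2 (0.20), PHF19 (-0.13) and CBX2 (-0.083) in the interaction. The interaction then held 3503 called genes against 6834 (19.7% against 38.4% of all genes tested) and 2 members against 4. The ratio test gave a SAHA effect on the EZH2 to EZH1 ratio of -0.094. The cause was not tested. With the replicate number as a block as well, the same values were -0.029, -0.008, 0.12, -0.037, 0.49, -0.20, -0.32, 0.20, -0.12 and -0.081. In that setting the interaction held 3029 genes (17% of all genes tested) and 3 of the 10 members (EED, RBBP7 and BMI1). In the combination against SAHA, 5 of the 10 members were called, beside 50.9% of all genes tested.

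The replicate block alone moved 2 member calls: RBBP4 with SAHA (-0.25, edgeR adjusted p = 0.0573) lost and BMI1 with BEZ-235 (0.39, edgeR adjusted p = 0.0401) gained; ratio means within replicate number were -1.85 for BEZ-235 and -0.27 for SAHA. Same-numbered libraries correlated from -0.54 to 0.58 over 18 pairs, against -0.48 to 0.49 over 36 differently numbered pairs. These ranges overlap, and the trend with GC content differed between replicates of a group. This comparison therefore cannot show whether the numbers pair the samples. Without a count filter, 2 members were called with SAHA (21.1% of all 36336 genes tested), and JARID2 with BEZ-235 (-0.009) and EED in the interaction (-0.04) changed sign. Leaving out each library gave 2 to 5 members called with SAHA, while 6333 to 8063 of all genes tested were called. In the combination against BEZ-235 it gave 5 to 9 members, with 9048 to 10454 of all genes called. Leaving out a library changed the sign of uncalled values near 0: JARID2 with BEZ-235 (-0.014 to 0.032), EED (-0.15 to 0.087) and EZH1 (-0.11 to 0.075) in the interaction, EZH1 with SAHA (-0.019 to 0.17), JARID2 in the combination against SAHA (-0.049 to 0.015) and CBX2 in the combination against DMSO (-0.17 to 0.005). Relative log expression scaling and unrounded counts changed no member call, and DESeq2 changed 1 (BMI1 with BEZ-235, adjusted p = 0.0479). A stricter filter gained calls for RBBP7 with SAHA (edgeR adjusted p = 0.0399) and BMI1 with BEZ-235 (0.0437). Fitting only the groups compared lost EZH2 in the combination against BEZ-235 (-0.24, edgeR adjusted p = 0.0576). It gained SUZ12 (edgeR adjusted p = 0.0449) and RBBP7 (0.0395) with SAHA and BMI1 with BEZ-235 (0.0437). With SAHA, 6 members then passed, beside 46.5% of all genes tested. Depth limits PCGF5 and CDKN2B, which had few counts in DMSO.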
